A study of Mus musculus with 2 samples.

Results

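Intronless coding transcripts carried 2250 of the 79835 GLORI-detected m6A sites that lay in a DRACH 5-mer of a coding transcript on chromosomes 1 to 19 (2.82%). A site was counted here when the longest annotated protein-coding isoform covering it on the same strand, among isoforms with a complete coding sequence (CDS) and both UTRs, consisted of a single exon. The 2250 sites lay in 229 genes. In the annotation 1277 genes have a complete single-exon isoform with both UTRs, whether or not it is the longest. Under the rule used here, 979 single-exon transcripts had a DRACH adenosine assigned to them. Both site lists together held 219409 sites, of which 94551 were DRACH sites on these chromosomes.

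GLORI uses glyoxal and nitrite to deaminate unmethylated adenosines, so that they are read as G while m6A is still read as A. At P0, the cerebellum and the cerebrum of a female F1r mouse (C57BL/6J mother, PWK/PhJ father) each gave 1 poly(A)+ RNA library. Both libraries carried the GLORI+ treatment and shared cross, sex and age. The name under which the cerebrum list was deposited also holds the study's short form for cerebellum, and every count per tissue here follows the sample labels. Each deposited list gives positions and strands of sites that passed the authors' limits on methylation rate and read count, but neither quantity itself, so depth is unknown. Neither tissue had a replicate, and no difference between the tissues was tested. A site missing from a list may be unmethylated, unexpressed or too thinly covered, and these cannot be told apart.

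m6A is deposited on nascent mRNA by a complex built around METTL3 and METTL14, which prefers the motif DRACH (D is A, G or T, R is A or G, and H is A, C or T). Exon junction complexes, left on the mRNA upstream of each splice junction, are known to keep the writer away from nearby adenosines, so that m6A is typically found in long internal exons, in last exons and around the stop codon. An intronless transcript acquires no exon junction complex. Many intronless genes of the brain encode transcription factors, receptors, adhesion molecules and signalling regulators.

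Sites were shown in sequence for the 8 genes with the most sites, since these transcripts carry the pattern described here. For each gene the site found in both libraries nearest to the stop codon is given, and for the first 4 genes also the one nearest to the middle of the CDS. Each run spans 21 nt of GRCm38, 5′ to 3′ on the strand of the transcript, with the DRACH 5-mer in capitals and the called adenosine as its middle base.
Epm2aip1, 3′ UTR, chr9:111273863-111273883, plus strand: aaagcattGAACTtactacag
Epm2aip1, CDS, chr9:111272881-111272901, plus strand: tatgattaAGACCagaggtgt
Slitrk1, CDS, chr14:108911181-108911201, minus strand: tcactttcAGACTaagccccc
Slitrk1, CDS, chr14:108912195-108912215, minus strand: ttaaagatGAACTgtaacaac
Ranbp6, CDS, chr19:29809709-29809729, minus strand: tcagatacAGACTtctgaaga
Ranbp6, CDS, chr19:29811270-29811290, minus strand: ttcaaaagGAACTcaagcttc
Pou3f3, 3′ UTR, chr1:42698864-42698884, plus strand: ccgcccaaAGACAggcgtgcc
Pou3f3, CDS, chr1:42697678-42697698, plus strand: ctcaccaaGGACAccctgggg
Cdk5r1, CDS, chr11:80478361-80478381, plus strand: gtgttctcTGACTtgaagaat
Kctd12, CDS, chr14:102981482-102981502, minus strand: caagatctGGACCagctacac
Rbm15b, CDS, chr9:106884304-106884324, minus strand: atagtaagGGACAccgcctag
Zbtb18, CDS, chr1:177448649-177448669, plus strand: gctctcaaGAACTttggaaat
Of the 8 sites nearest to a stop codon, 6 lay in the CDS. The Slitrk1 site lay 4 nt before the last base of the stop codon, the Rbm15b site 10 nt, the Zbtb18 site 12 nt, the Kctd12 site 35 nt, the Cdk5r1 site 61 nt and the Ranbp6 site 86 nt. Both sites in 3′ UTRs lay further off, 92 nt past the stop codon in Epm2aip1 and 235 nt past it in Pou3f3. The sites nearest to the middle of the CDS lay 890 nt upstream of the stop codon in Epm2aip1, 951 nt in Pou3f3, 1018 nt in Slitrk1 and 1647 nt in Ranbp6.

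Sites were spread unevenly over the 229 genes. The median gene held 6 sites, 37 genes held 1 site and 92 held 10 or more, while the 20 genes with the most sites held 700 (31.1%). The median gap between neighbouring sites of a transcript was 74 nt, and 774 of 2021 neighbouring pairs lay within 50 nt. Gaps between all DRACH adenosines were not computed, so closeness beyond the density of DRACH adenosines was not tested. The cerebellum list held 1248 of the sites and the cerebrum list 2036, with 1034 in both. Of the genes, 174 had a site in the cerebellum list and 209 in the cerebrum list, and 148 had at least 1 site found in both.

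Epm2aip1, which encodes a partner of the glycogen phosphatase laforin, carried the most sites. Its transcript at chr9:111271945-111279093 on the plus strand had 53 called adenosines among its 141 DRACH adenosines (37.6%), 29 in the CDS and 24 in the 3′ UTR. The cerebellum list held 41 of them and the cerebrum list 51, with 39 in both. Slitrk1, a neuronal transmembrane protein that shapes neurite outgrowth and synapses, followed with 52 of 110, of which 7 lay in the 5′ UTR, 28 in the CDS and 17 in the 3′ UTR. Ranbp6, of the importin β family, had 44 of 113, and 38 of these lay in its CDS of 3318 nt.

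Several regulators of neuronal differentiation and signalling were among the 20 genes. Pou3f3, a POU-domain transcription factor of the developing cortex, had 42 called of 118 DRACH adenosines, 26 in the cerebellum list and 42 in the cerebrum list. Zbtb18, a zinc finger repressor of cortical development, had 15 sites in the cerebellum list and 37 in the cerebrum list. All cerebellum sites of both genes were in the cerebrum list too. Sox11 and Sox4, SOX factors of newly formed neurons, carried 33 and 30 sites, of which 24 and 17 lay in the 3′ UTR. Cdk5r1, the p35 activator of the kinase Cdk5, had the highest called share of the genes with at least 20 DRACH adenosines, 41 of 70 (58.6%), with 33 sites in the cerebellum list and 38 in the cerebrum list. Kctd12, an auxiliary subunit of GABA-B receptors, had 35 of its 40 sites in the 3′ UTR. Rbm15b, itself an RNA-binding member of the m6A writer complex, carried 39 sites, 26 of them in the CDS, with 18 in the cerebellum list and 37 in the cerebrum list.

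The placement of sites differed between these genes. Klhl9, an adaptor of a cullin ubiquitin ligase, and Lrrc4, a postsynaptic adhesion molecule, each carried 27 of 29 sites in the CDS. Purb, a nucleic-acid-binding protein of the Pur family, carried 25 of 27 in the 3′ UTR. Atxn7l3b, with a CDS of only 294 nt, had 28 of 52 DRACH adenosines called (53.8%), 25 of them in the 3′ UTR, and its lists were nearly the same, with 27 sites in each library and 26 in both. Irf2bpl, a nuclear regulator of neurons, held 18 of 27 sites in the CDS and 6 in the 5′ UTR. The others of the 20 were Rtl6 with 34 sites, B3galt1 with 33, Pnmal2 with 31, Fem1a with 27 and Maf with 24. Of the 20, Epm2aip1, Cdk5r1, Rbm15b, Zbtb18, B3galt1, Lrrc4 and Maf also have multi-exon coding isoforms in the annotation. Of all 229 genes, 186 have only single-exon coding isoforms, and these held 1723 of the 2250 sites. For the remaining genes the lists cannot show which isoform carried a site.

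**Figure D1:**
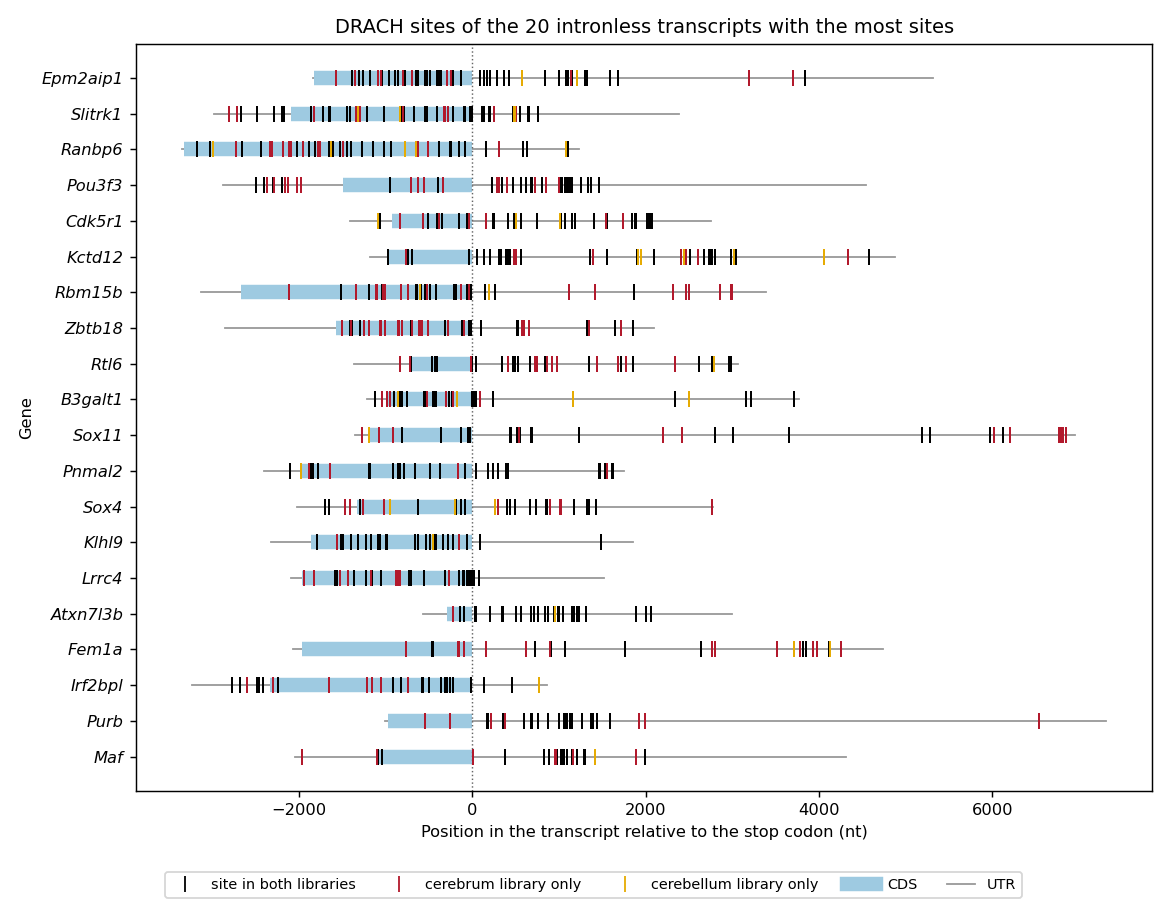
DRACH sites (vertical ticks) of the 20 intronless transcripts with the most sites, in rows by gene, at their position relative to the stop codon in nt; blue bars are the CDS, grey lines the UTRs, and tick colour gives the library. Sites cover most of the CDS in Ranbp6, Klhl9 and Lrrc4 (38, 27 and 27 CDS sites), while 25 of the 27 sites of Purb lie in its 3′ UTR.

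The called share, the percentage of DRACH adenosines that appear in the lists, was then compared between intronless and multi-exon transcripts, over transcripts with at least 1 called DRACH site. Over all these coding transcripts it was 9.85% for either library, 6.59% for the cerebellum list and 9.21% for the cerebrum list. In intronless transcripts 2250 of 13950 DRACH adenosines were called, 16.1% (95% Wilson interval 15.5 to 16.7), against 77585 of 796888 in multi-exon transcripts, 9.74%. The difference was 6.39 percentage points, with a 95% interval of 4.46 to 8.33 that takes the gene as the unit and is used below to call differences where it leaves out 0. Such intervals cover the spread between genes, not between mice. The cerebellum list gave 11.2% against 6.51%, and the cerebrum list 15.8% against 9.10%, so both libraries showed the same order.

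Intronless transcripts had the higher share on 18 of 19 autosomes, where their share ranged from 7.04% to 23.3% and that of multi-exon transcripts from 8.65% to 11.4%. The exception was chromosome 18, with 7.04% against 11.4%. The beta protocadherins, clustered on that chromosome, had 114 of 1583 DRACH adenosines called (7.20%), and the other intronless transcripts there 27 of 419 (6.44%), so both groups lay below the multi-exon share.

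By region, the highest called share was in the CDS. In intronless transcripts 877 of 4499 CDS DRACH adenosines were called (19.5%, gene interval 16.1 to 22.9), 1273 of 7984 in the 3′ UTR (15.9%) and 100 of 1467 in the 5′ UTR (6.82%). The CDS share was above that of the 3′ UTR by 3.55 points, with an interval of 0.0174 to 7.08 that nearly reached 0, and above that of the 5′ UTR by 12.7 points. Within genes the order was mixed: of 142 genes with at least 10 DRACH adenosines in each region, 74 had the higher share in the CDS and 67 in the 3′ UTR, with medians of 14.3% and 13.3%. By number, 39.0% of the sites lay in the CDS, 56.6% in the 3′ UTR and 4.44% in the 5′ UTR.

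The CDS of intronless transcripts stood far above the short internal exons of multi-exon transcripts. In internal exons under 200 nt, 1340 of 193777 CDS DRACH adenosines were called (0.692%), which put intronless CDS 18.8 points higher (95% interval 15.4 to 22.2). The order held on all 19 autosomes, with 0.377% to 0.857% in short internal exons and 7.5% to 36.0% in intronless CDS. In the cerebellum list the shares were 12.8% and 0.229%, and in the cerebrum list 19.99% and 0.593%. For sites found in both libraries they were 13.5% and 0.0916%.

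Against the coding part of last exons and long internal exons, the intronless CDS was not higher. Of the 64050 DRACH adenosines in the coding part of last exons, 17460 lay within 100 nt of the last junction, where 10.1% were called. The coding part of last exons had a called share of 20.6%, and the difference of -1.13 points (-4.60 to 2.34) was not called. Intronless CDS was higher on 9 of 19 autosomes there. Without the 10 intronless genes with the most sites this difference was -4.11 points and was called. This difference was also called among genes whose coding isoforms are all of 1 exon class, 17.0% against 21.2% (-4.20 points). Its sign turned with the cerebrum list alone (0.244 points) and with sites found in both libraries (0.526 points). Internal exons of at least 400 nt had a share of 23.6%, and the difference for intronless CDS was -4.07 points (-7.60 to -0.537), a call that was lost with the cerebrum list alone and with sites found in both libraries, and whose sign turned among transcripts with 5 or more sites (0.25 points). The CDS of first exons of multi-exon transcripts had a share of 11.1%, and intronless CDS was 8.42 points higher (4.76 to 12.1).

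**Figure D2:**
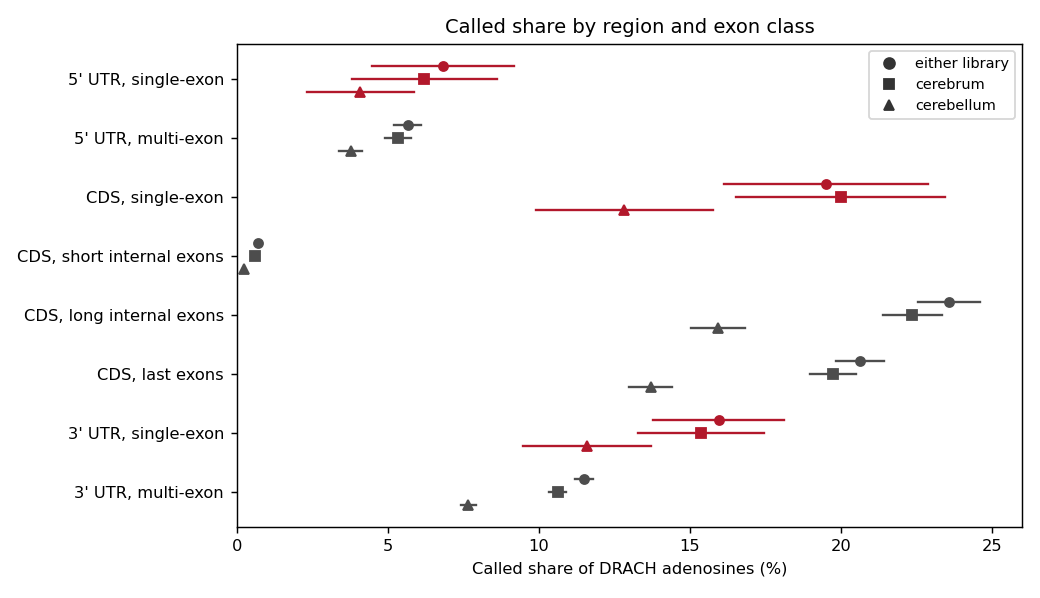
Called share of DRACH adenosines in percent by region and exon class, for intronless (red) and multi-exon (grey) transcripts, with 95% intervals over genes as lines and the list as marker shape. Intronless CDS (19.5% for either library) lies beside last exons (20.6%) and far above short internal exons (0.692%).

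Multi-exon CDS was also described by distance to the nearest exon-exon junction. Its called share was 1.24% within 50 nt of a junction, 4.49% at 50 to 100 nt, 16.2% at 100 to 150 nt and 23.0% at 150 to 200 nt. Beyond 200 nt it lay between 24.1% and 26.6%. The intronless CDS share of 19.5% thus fell between the values for 100 to 150 nt and 150 to 200 nt. After removal of adenosines within 200 nt of a junction, or of the transcript start in intronless transcripts, an alternative chosen after seeing the data, intronless CDS was 5.55 points below the coding part of last exons, and this difference was called. The difference from long internal exons became -7.04 points. Over whole transcripts, the excess of intronless over multi-exon transcripts fell from 6.39 to 3.39 points (16.7% against 13.3%). Both stayed called.

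**Figure D3:**
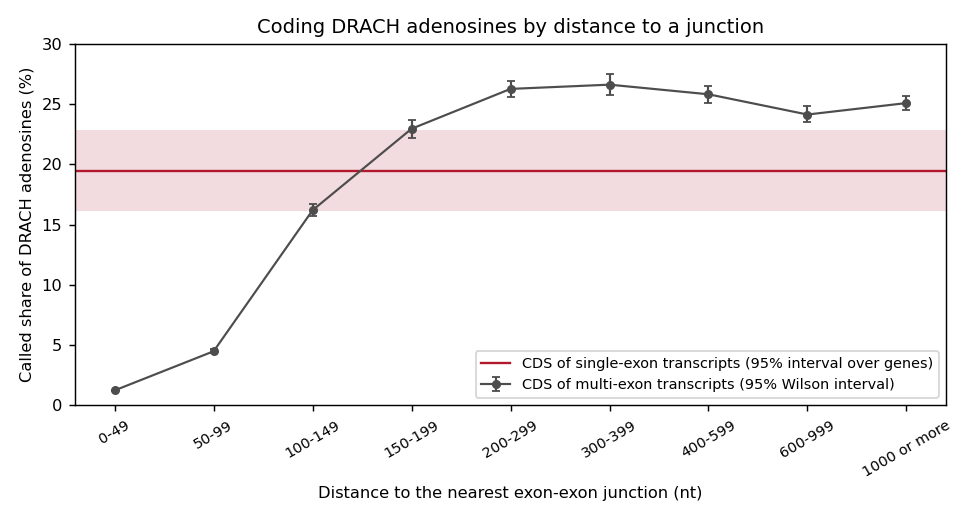
Called share of CDS DRACH adenosines of multi-exon transcripts in percent by distance to the nearest exon-exon junction in nt, with 95% Wilson intervals, beside the share of intronless CDS (red line, 95% interval over genes shaded). The grey points climb from 1.24% to 26.3% by 200 to 300 nt, crossing the red line at 19.5%.

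In the 3′ UTR intronless transcripts had the higher share too, 15.9% against 11.5% in multi-exon transcripts, a difference of 4.45 points (2.28 to 6.62). In the 5′ UTR the shares of 6.82% and 5.66% were not called different (1.16 points, -1.23 to 3.54).

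Along intronless transcripts the called share rose from the start and peaked past the stop codon. It was 2.85% in the first 100 nt, 6.01% in the next 100 nt and 28.4% at 1200 to 1300 nt. In the first 200 nt it was 4.43%, against 16.7% in the rest of the transcript, a ratio of 0.266 (0.181 to 0.391). Multi-exon transcripts showed a ratio of 0.207 for the same windows, 2.07% against 9.98%. Within the intronless CDS, the part upstream of its midpoint had 15.6% called and the part downstream 23.1%, a difference of -7.54 points (-10.6 to -4.51) for upstream minus downstream.

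Around the stop codon, the share within 200 nt was 28.7% in intronless transcripts and 14.4% elsewhere, a ratio of 1.998 (1.75 to 2.29). In multi-exon transcripts it was 20.7% against 8.48%, a ratio of 2.44 (2.38 to 2.51). Both multi-exon shares were taken over all exons, short internal ones included. The ratio of intronless transcripts was 0.818 of the multi-exon ratio (0.713 to 0.938). This difference was no longer called with a window of 400 nt or without the 10 intronless genes with the most sites.

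Upstream of the stop codon the share of intronless transcripts was well above that of multi-exon transcripts, taken over all their exons. These multi-exon values mix the coding part of last exons with earlier exons, among them short internal ones (0.692%). Against the coding part of last exons alone, the intronless CDS was not higher (19.5% against 20.6%). In the 100 nt that end 200 nt upstream, 24.2% of DRACH adenosines were called in intronless transcripts and 8.05% in multi-exon transcripts, and in the last 100 nt of the CDS 28.9% and 16.9%. In the first 100 nt of the 3′ UTR the values were 28.4% and 27.5%. Intronless transcripts reached 35.0% at 100 to 200 nt past the stop codon and 34.4% at 200 to 300 nt, against 27.8% and 23.5%. By 900 to 1000 nt past it the values were 11.4% and 9.98%. Within the 3′ UTR of intronless transcripts the part before its midpoint had 22.8% called and the part after it 9.50%, a difference of 13.3 points (10.1 to 16.5). In the last 100 nt before the transcript end, the share was 10.7%.

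**Figure D4:**
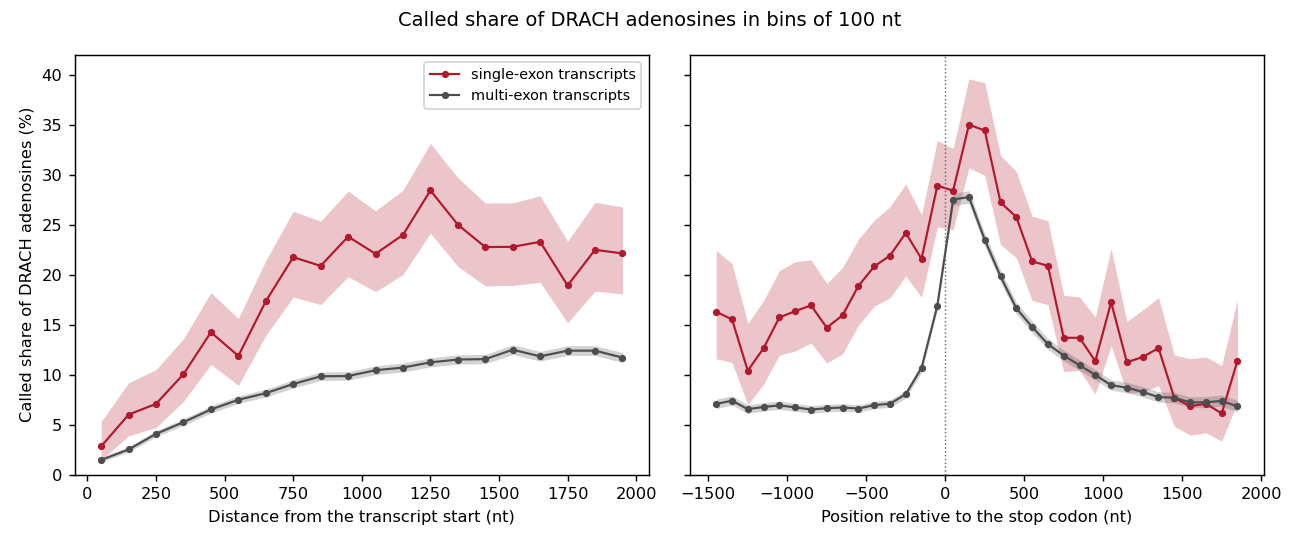
Called share of DRACH adenosines in percent, in bins of 100 nt from the transcript start (left) and around the stop codon (right), in intronless (red) and multi-exon (grey) transcripts, with 95% Wilson intervals shaded. Upstream of the stop codon the red line stays well above the grey line, and both are near 28% in the first 100 nt past it (28.4% and 27.5%). Grey values are taken over all exons, short internal ones included.

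The order of the DRACH 5-mers was also examined, since the writer prefers some of them. In intronless transcripts GGACT had the highest called share, 286 of 867 (33.0%), followed by GAACT (32.7%), AGACT (29.7%), TGACT (28.6%) and GGACA (24.5%). In multi-exon transcripts the same 5-mers had 24.3%, 21.5%, 19.6%, 16.0% and 15.3%. The share was higher in intronless transcripts for 17 of the 18 5-mers, and the Wilson intervals were separate for 15. These intervals treat adenosines of the same gene as independent, and no interval over genes was computed per 5-mer. Over all intronless DRACH adenosines the interval over genes was wider, 14.2 to 18.1, against 15.5 to 16.7 by Wilson. The exception, TAACC, was called at 1 of 370 adenosines in intronless transcripts and at 143 of 20072 in multi-exon ones. 5-mers ending in ACT made up 56.4% of intronless sites and 58.0% of multi-exon sites. Of all called sites on intronless coding transcripts, DRACH or not, 68.7% were DRACH (Wilson 67.1 to 70.2; 3277 sites), against 61.2% on multi-exon transcripts (126803 sites).

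Position within the codon and transcript length were described as well. In intronless CDS the called share was 15.9% where the adenosine was the first base of its codon, 20.9% for the second and 20.5% for the last. In multi-exon CDS the first base was also lowest, with 7.77%, 8.31% and 9.25%. Intronless transcripts under 2000 nt had 21.5% called, those of 2000 to 4000 nt 14.7% and longer ones 16.3%. Multi-exon transcripts gave 10.2%, 9.46% and 9.81%. A called site was required of each transcript, which raises the share most where DRACH adenosines are few. Among the 210 genes with at least 20 DRACH adenosines, the share ranged from 0.571% to 58.6%, with a median of 12.9%.

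Families with intronless members were described by counts, beside the 16.1% over all intronless transcripts with a site. Counts of members with a site stand beside 229 of all 1277 genes that have a single-exon coding isoform. Of the 979 single-exon transcripts with a DRACH adenosine assigned, 229 had a site. Shares are taken over those members that had a site. All 7 SOX factors of the list, Sox1, Sox2, Sox4, Sox11, Sox12, Sox14 and Sox21, carried sites, 122 of 499 DRACH adenosines (24.4%). Their CDS share was 39.3% and their 3′ UTR share 22.3%. Sox11 was called at 7 of its 10 CDS DRACH adenosines and Sox21 at 0 of 6. The POU class III factors, regulators of neural progenitors and cortical neurons, had 67 of 272 called (24.6%), with 10 sites in Pou3f1, 15 in Pou3f2 and 42 in Pou3f3.

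Other transcription factor families had sites in part of their members. Of 8 intronless bHLH factors, 2 carried sites. These were Bhlhe22, of cortical neurons, and Olig1, of the oligodendrocyte lineage, with 21 of 46 and 10 of 28 DRACH adenosines called. Among the AP-1, Maf and early response genes, Maf carried 24 sites, Jun 14, Ier5 12 and Jund 9. The 3 intronless C/EBP genes, Cebpa, Cebpb and Cebpd, carried 0 sites.

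Families of receptors, channels and surface molecules were described next, and their shares were not tested against the rest. Frizzled receptors, which bind Wnt ligands, had 35 of 309 called (11.3%) in 5 of 6 members, and Fzd1 alone held 21 of these sites. Of 11 other seven-transmembrane receptors, Htr1a, Gpr135 and Adra2a carried 10, 6 and 4 sites. Of 5 intronless potassium channels, Kcna3 held 7 of the 9 sites. The beta protocadherins, neuronal surface molecules encoded side by side and similar in sequence, had sites in 18 of 21 members with 7.20% of their DRACH adenosines called. Pcdhb20 led with 18 of 64, and Pcdhb1, Pcdhb3 and Pcdhb10 had 0. Reads that these genes share could not be checked here, since the lists hold no reads.

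Among RNA-binding proteins, Rbm15b, Purb, Hnrnpa0 and Nanos1 together had 81 of 367 called (22.1%), but unevenly, with 39, 27, 13 and 2 sites. The small GTPases Rhob and Rap2b had 20 of 49 and 14 of 111.

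The libraries overlapped in part, in intronless as in multi-exon transcripts. Of the cerebellum sites 82.9% were also in the cerebrum list, and of the cerebrum sites 50.8% were in the cerebellum list. Multi-exon transcripts gave 83.7% and 48.9%. The share of sites found in both was 46.0% and 44.6%, a difference of 1.35 points (-3.14 to 5.84) that was not called. Sites were listed in the cerebrum alone for 55 of the 229 intronless genes and in the cerebellum alone for 20. By list, 209 of the 229 had a site in the cerebrum and 174 in the cerebellum. Of 9125 genes with a site in a multi-exon transcript, 8849 had one in the cerebrum list and 6867 in the cerebellum list.

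Several transcription factors were listed mostly in the cerebrum or the cerebellum. The cerebrum list was the longer, with 188295 sites against 79355 in all. For the intronless DRACH sites it held 2036 against 1248. Bhlhe22 had 1 site in the cerebellum list and 21 in the cerebrum list, Sox1 3 and 18, and Pou3f1 1 and 9. In the other direction, Sox14 had 10 sites in the cerebellum list and 0 in the cerebrum list, and Kcna3, a voltage-gated potassium channel, 7 and 0. Fzd1 and Olig1 were listed about equally, with 17 and 16 sites and with 8 and 8. The lists hold no expression values, so the part of expression in these counts was not tested.

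**Figure D5:**
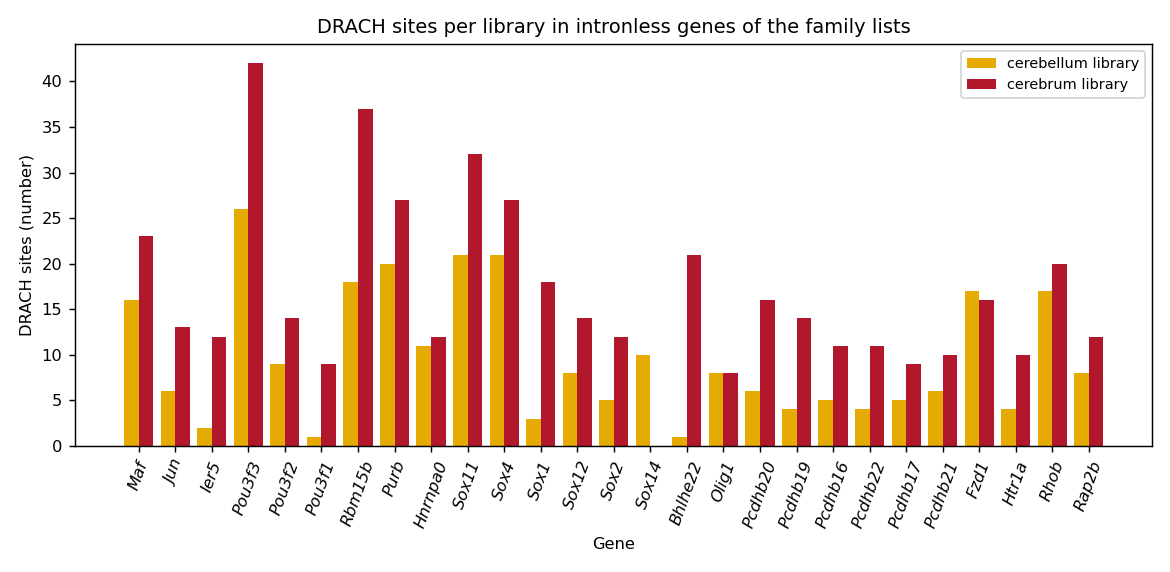
Number of DRACH sites in the cerebellum (yellow) and cerebrum (red) library for intronless genes with at least 10 sites among the AP-1 and Maf, POU, RNA-binding, SOX, bHLH, beta protocadherin, frizzled, other receptor and small GTPase lists; each bar is 1 library, so there are no error bars. Bhlhe22 has 1 site in the cerebellum and 21 in the cerebrum, while Sox14 is listed in the cerebellum alone (10 sites).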

How the data were processed

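Site positions were deposited by the authors, who mapped GLORI reads to mm10 and PWK-mm10, ran GLORI-tools, merged the sites of both genomes per library and filtered on methylation rate and read count. The deposited files hold chromosome, position and strand, with neither rates nor reads. Positions were looked up in GRCm38, the assembly mm10 names, and in gene models of GENCODE M21 for mouse, a release other than that of the study's methods. Called shares were called DRACH adenosines over all DRACH adenosines of transcripts with at least 1 called DRACH site. Differences and ratios have 95% intervals from linearised variances clustered by gene, and were called where the interval left out no difference. Wilson intervals treat adenosines as independent, and both kinds cover counting or gene-to-gene spread only. Named genes were the 20 with the most sites and intronless members of family lists, some of which are not reported here. The sites, lists and tests were chosen with earlier results of these data known. Alternatives varied the site list, annotation, leading genes, minimum sites, 5-mer composition, repeats, overlapping genes and windows. The CDS differences from short internal, last and long internal exons and the 3′ UTR difference were tested on simulated data. The other results were not. Computations used Python 3.11.15, numpy 2.4.6 and pandas 2.3.3, and figures matplotlib 3.10.9.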

Additional observations from a re-analysis of the deposited data

Results flagged for a closer look

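Intronless coding transcripts also carried 1027 called sites outside DRACH of 3277 called sites in all. They were noted because the called shares above leave them out, and entered only the share of called sites that are DRACH, 68.7% against 61.2% on multi-exon transcripts. The cerebellum list held 318 of them and the cerebrum list 872, with 163 in both (15.9%). They lay on 238 transcripts, 61 of which had no DRACH site, and the reference base was not A at 1 of them.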

How the results depend on the processing

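Of 91 values recomputed under alternatives, 79 kept their direction and their side of the threshold. All alternatives did so for the difference in called share between intronless and multi-exon transcripts (3.39 to 8.11 points), intronless CDS against short internal exons (12.6 to 28.0 points), the 3′ UTR difference (3.15 to 6.37 points), the intronless stop codon ratio (1.88 to 2.22) and the ratio for the first nucleotides (0.136 to 0.387). The value of 3.39 points came without adenosines within 200 nt of a junction or the start. The value of 6.37 points came from the first 400 nt of the 3′ UTR. Both alternatives, and one with 3′ UTRs of 500 to 3000 nt (4.82 points), were chosen after seeing the data. The difference between intronless CDS and the coding part of last exons turned to 0.526 points with sites found in both libraries and to 0.244 points with the cerebrum list alone. It became called at -4.20 points among genes of 1 exon class, at -4.11 points without the 10 intronless genes with the most sites, and at -5.55 points without adenosines within 200 nt of a junction or the start, an alternative chosen after seeing the data. Against long internal exons the difference was no longer called with sites found in both libraries (-1.37 points) or the cerebrum list alone (-2.37 points), and turned to 0.25 points among transcripts with 5 or more sites. The log2 difference in stop codon ratio was no longer called without those 10 genes (-0.16) or with a window of 400 nt (-0.0303). The difference in the share of sites found in both libraries, not called, turned to -0.618 points among genes of 1 exon class and to -2.21 points without those 10 genes. The causes were not tested. No paired analysis was possible because each tissue had 1 library. Without reads or rates, depth limits every absence in a list.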
